A study of Homo sapiens with 6 samples.

Results

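The human ZNF genes whose symbol is ZNF, a number and at most one further letter were followed in Huh7 cells, a human hepatocellular carcinoma line, after addition of GABA (gamma-aminobutyric acid). A gene was taken if it was protein-coding and averaged at least 10 counts over the 6 libraries, and 83 of the 5187 genes listed in the deposited files met this. The mean count and the name chose the members, and the fold changes did not enter the choice directly, although the genes in the files had themselves been selected on the same comparison (below) and the family was taken up with earlier results of these data known. RNA was sequenced from 3 cultures given GABA for 24 h and from 3 control cultures held for the same 24 h. All 6 were Huh7 cells grown in DMEM with fetal bovine serum and antibiotics, so each value describes 1 cell line, and the labels state neither the GABA dose nor whether the replicates came from separate passages. The series asks which genes GABA regulates in the setting of metastasis of this cancer. The p-values measure the spread between these libraries.

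Most ZNF proteins carry arrays of C2H2 zinc fingers, small folds in which a pair of cysteines and a pair of histidines hold a zinc ion and each finger can read a few bases of DNA. The largest group also has a KRAB domain near the amino end, which binds the corepressor TRIM28 (KAP1). TRIM28 brings the histone methyltransferase SETDB1 and heterochromatin protein 1, and many KRAB proteins silence transposable elements in this way. KRAB genes arose largely by tandem duplication and sit in clusters on chromosome 19. Members without a KRAB domain have more varied roles, and the shared name does not by itself make a protein a transcription factor. ZNF598, for example, is a ubiquitin ligase of stalled ribosomes, and ZNF451 is a SUMO ligase.

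The files do not sample the ZNF family evenly. GENCODE release 29 annotates 510 protein-coding genes with such a name, of which 84 (16.5%) were listed, against 4449 of 19951 protein-coding genes (22.3%). A KRAB domain was read from the translated GENCODE transcripts by local alignment to the first 75 residues of ZNF10, a well-studied KRAB protein, with a score of at least 50 counted as KRAB. The members without the domain scored at most 34 and those with it at least 63. Of 349 annotated KRAB genes 45 (12.9%) were listed, and of 161 without the domain 39 (24.2%). The member count was then 44 KRAB genes and 39 others. ZNF540, at a mean of 12.5 counts, was the member nearest the minimum, and ZNF311, at 7.17 counts, the 1 listed gene of such a name below it. ZNF311 had 2, 2 and 6 counts in the GABA libraries and 10, 8 and 15 in the control libraries. ZNF540 reached the minimum only through its GABA libraries, so its change had to be a rise and is given as a description.

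Counts on the listed genes summed to between 7702666 and 8392945 per library, and these are totals over the listed genes, not sequencing depths. The order of the genes in the files followed the p-value of this comparison (Spearman correlation 0.931 over the tested genes), and the tested gene with the smallest fitted change still differed by 0.12 on the log2 scale. Nearly every listed gene therefore passes a test of GABA against control: edgeR called 98.7% of the 4981 tested genes, with 47.6% higher and 51.2% lower, at an adjusted p of 0.05. Calls of single members carry little information for that reason, and the direction, size and per-library values are what is described here. Control replicate 3 stood apart, with 9.11% of its counts on mitochondrially encoded genes, against 6.66% to 7.04% in the GABA libraries and 7.74% and 7.14% in the other control libraries. None of 10 hepatocyte and Huh7 markers, among them ALB and AFP, was in the files used here, so the line could not be checked by them. Of 6 fibroblast markers 2 were listed, and of 4 endothelial and 4 immune markers none.

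ZNF transcripts were mostly higher with GABA. All 83 members passed the filter on low counts, and 56 (67.5%) rose and 27 (32.5%) fell, against the 47.6% and 51.2% of all tested genes. Their median log2 fold change was 0.34 (quartiles -0.25 and 0.53), while over all tested genes it was -0.18 (quartiles -0.39 and 0.41). The changes were modest: 53 members had an absolute value below 0.5. ZNF221 was above 1, as was ZNF540, which the minimum count admitted through its GABA libraries. With a minimum mean of 50 counts in place of 10, which leaves ZNF540 out, 53 members rose and 27 fell. In 80 members the GABA and control libraries did not overlap, against 92.5% of all tested genes: 56 lay wholly above control and 24 wholly below, against 45.8% and 46.7% of all tested genes. The 3 whose groups overlapped were ZNF697, ZNF330 and ZNF451, all called lower here. Each of the 3 lost its call when GABA replicate 1 or 3 was omitted, in DESeq2 and under its size factors; ZNF697 also without control replicate 2, ZNF330 without control replicate 1, and ZNF451 without control replicate 1 or 3 and with scaling by library size only. Member counts together made up 0.566%, 0.554% and 0.560% of the listed counts in GABA replicates 1, 2 and 3, against 0.494%, 0.503% and 0.474% in control replicates 1, 2 and 3. Bulk counts cannot tell fewer expressing cells from less RNA per cell.

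**Figure D1:**
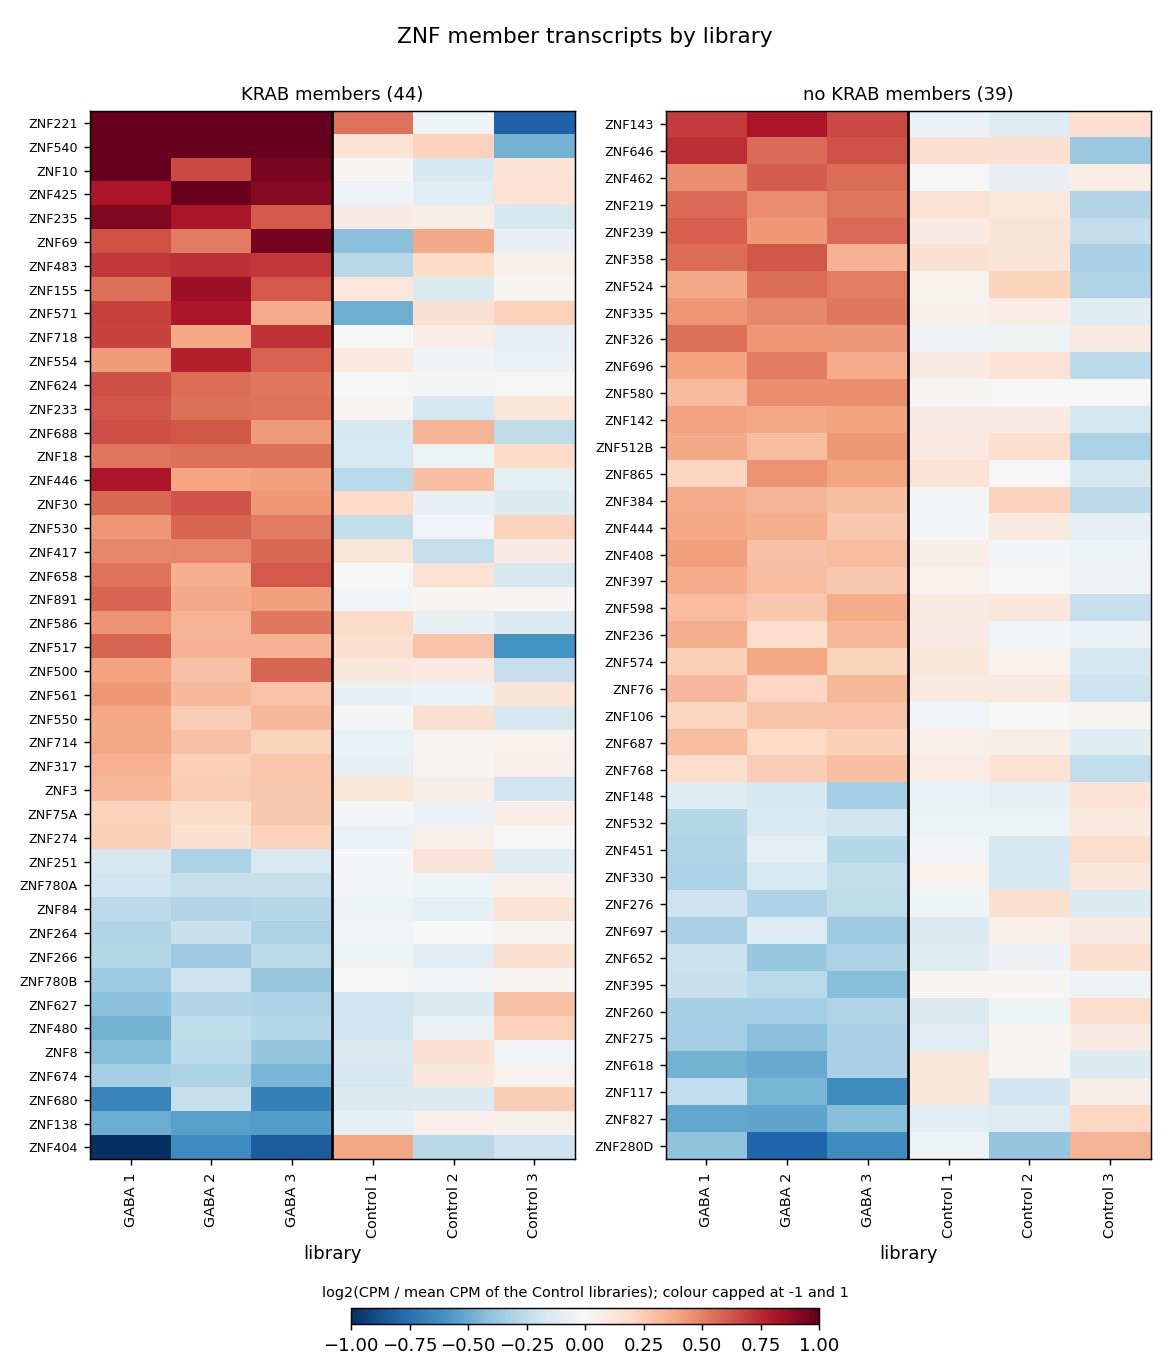
Each row is a member and each column a library (3 GABA, then 3 control), in 2 panels for the 44 KRAB and 39 other members, with rows sorted by fold change; colour gives log2 of the CPM over the mean CPM of the control libraries, capped at -1 and 1. The 56 members called higher fill the upper part of the panels and the 27 called lower the bottom, and control replicate 3 differs from the other control libraries in many rows.

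Among the KRAB genes 31 rose (70.5%) and 13 fell (29.5%), with a median log2 fold change of 0.44 (quartiles -0.23 and 0.58). Over all tested genes 47.6% rose and 51.2% fell, with a median of -0.18. The 31 include ZNF540, which reached the minimum count only through its GABA libraries. Levels are given as CPM, counts scaled to the TMM-adjusted total of the listed genes. ZNF10 (ENSG00000256223, chromosome 12, 133130575 to 133159465, plus strand), whose KRAB domain has been used in many engineered repressors, had 33.4, 21.7 and 26.6 CPM in the GABA libraries, against 13.8, 12.3 and 15.1 CPM in the control libraries. Every GABA library lay above every control library, and the log2 fold change was 0.98 ± 0.17 (SE, edgeR adjusted p = 5.0e-04). ZNF425 (chromosome 7, 149102784 to 149126346), with 19 fingers, had 22.7, 29.1 and 24.4 CPM with GABA, against 12.6, 12 and 14.4 CPM in control cells. Its log2 fold change was 0.96 ± 0.15 (adjusted p = 2.3e-04), and the groups again did not overlap. ZNF624, on chromosome 17, had 43.7, 41.0 and 40.2 CPM with GABA and 27.9, 27.7 and 28 CPM in control cells. The control libraries lay within 1 CPM of each other, and the gene rose by 0.58 ± 0.10 (adjusted p = 5.6e-04). ZNF18, which joins a SCAN dimerisation domain to its KRAB domain, had 43.3, 43.5 and 43.7 CPM with GABA, against 26.8, 28.7 and 33.8 CPM in control cells, and rose by 0.55 ± 0.11 (adjusted p = 0.0014). The other SCAN and KRAB genes ZNF483, ZNF446, ZNF500 and ZNF274 also rose, by 0.72, 0.55, 0.43 and 0.21. ZNF18, ZNF446 and ZNF500 had KRAB scores of 89, 88 and 63, the 3 members between 50 and a stricter score of 100. That stricter score would take only these rising genes out of the KRAB class. ZNF446 shares 58.5% of its exon length with other genes, so its reads are uncertain, and the calls of ZNF446 and ZNF274 were lost without GABA replicate 1 or control replicate 1, and that of ZNF274 also without GABA replicate 3.

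The KRAB genes with the highest fold changes had few counts. ZNF221 had 59, 49 and 61 counts in the GABA libraries and 32, 20 and 12 in the control libraries, or 7.04 ± 0.640 CPM with GABA and 2.67 ± 1.18 CPM in control cells (SD, n = 3 each). The control libraries differed among themselves by more than the GABA libraries, and the log2 fold change was 1.39 ± 0.29 (adjusted p = 0.0015). ZNF540 had 16, 14 and 24 counts with GABA and 8, 8 and 5 in control cells; its fitted log2 fold change of 1.33 ± 0.37 is no support for a rise, because the control libraries alone fall under the minimum count. ZNF69 rose by 0.72 ± 0.25, with 47, 43 and 64 counts with GABA and 24, 39 and 29 in control cells, and its call was lost without control replicate 1 or GABA replicate 3. ZNF571 rose by 0.63 ± 0.22, with 96, 104 and 84 counts with GABA and 45, 66 and 71 in control cells, and its call was lost without control replicate 1 or GABA replicate 2. ZNF586 rose by 0.44 ± 0.15 and lost its call without GABA replicate 3.

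Of the 13 KRAB genes that fell, all but ZNF404, ZNF138 and ZNF680 had log2 fold changes between -0.37 and -0.21. ZNF404 had 4.11, 5.68 and 4.96 CPM with GABA, against 11.5, 7.25 and 7.63 CPM in control cells, a log2 fold change of -0.84 ± 0.24 (adjusted p = 0.0072). Control replicate 1 was well above the other control libraries, and the groups did not overlap; 17.6% of its exon length overlaps another gene. ZNF138, a gene of chromosome 7, had 14.4, 14 and 13.8 CPM with GABA, against 19.1, 21.0 and 20.9 CPM in control cells, and fell by 0.53 ± 0.13 on the log2 scale (adjusted p = 0.0037). ZNF680, also on chromosome 7, had -0.51 ± 0.18, and its call was lost without control replicate 3, GABA replicate 1 or GABA replicate 3. ZNF84, with 19 fingers and near ZNF10 at the end of chromosome 12 (133037292 to 133063304), had 113, 110 and 111 CPM with GABA and 130, 126 and 148 CPM in control cells. All 3 GABA libraries lay below the control libraries (-0.28 ± 0.08 on the log2 scale, adjusted p = 0.0077), the opposite sign to ZNF10. The adjacent paralogues ZNF780A and ZNF780B on chromosome 19 both fell, ZNF780B with 76.6, 85.1 and 75.5 CPM with GABA against 98.4, 97.2 and 99.6 CPM in control cells (-0.32 ± 0.08, adjusted p = 0.0047). ZNF780A had -0.22 ± 0.09, which did not pass with DESeq2 size factors or DESeq2, with the replicate block (adjusted over all genes in each), or without control replicate 1 or any 1 GABA library.

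**Figure D2:**
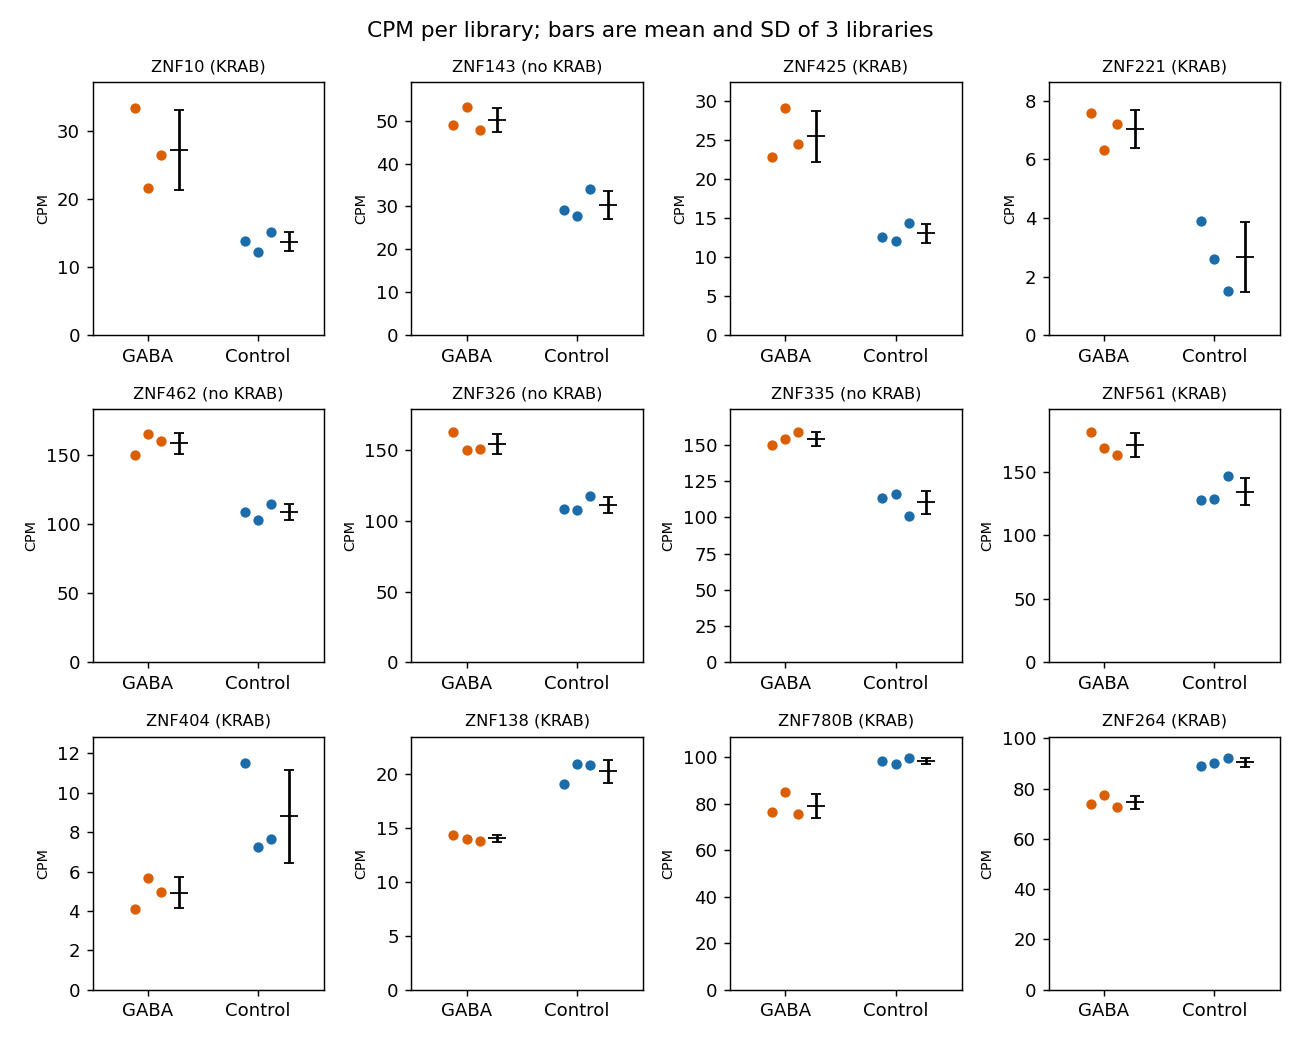
CPM in each library for 12 members, GABA left and control right, with the mean and SD of 3 libraries beside the points and each axis starting at 0. The 8 members in the top and middle rows lie higher with GABA and the 4 in the bottom row lower, with no overlap between the groups in any panel.

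Of the 39 members without a KRAB domain 25 (64.1%) rose and 14 (35.9%) fell, against 47.6% and 51.2% of all tested genes. Their median log2 fold change was 0.29 (quartiles -0.25 and 0.42), against -0.18 over all tested genes. With DESeq2 size factors 25 of the 39 members rose and 8 fell. ZNF143 (ENSG00000166478, chromosome 11, 9460319 to 9528524, plus strand), a transcriptional activator that binds many promoters, had the largest rise among them. It had 49.1, 53.2 and 47.9 CPM with GABA, against 29.1, 27.7 and 34.0 CPM in control cells (0.73 ± 0.11, adjusted p = 2.4e-04). Its close relative ZNF76 rose less, by 0.29 ± 0.09, with 118, 109 and 118 CPM with GABA against 100, 100 and 81.5 CPM in control cells. ZNF462 (chromosome 9), a protein of 2506 residues with 33 matches to the finger pattern, had 150, 165 and 160 CPM with GABA, against 109, 103 and 114 CPM in control cells, and had the smallest p-value of the members (0.54 ± 0.08, adjusted p = 1.4e-04). ZNF326, a subunit of the DBIRD complex that acts on transcript elongation and splicing, had 162, 150 and 150 CPM with GABA and 109, 107 and 118 CPM in control cells (0.47 ± 0.07, adjusted p = 3.0e-04). ZNF335, a part of histone H3 lysine 4 methyltransferase complexes, had 149, 154 and 158 CPM with GABA and 113, 116 and 101 CPM in control cells (0.48 ± 0.08, adjusted p = 3.2e-04). The GABA libraries stood above all control libraries in each of these genes. ZNF646, with 30 finger matches, rose by 0.65 ± 0.13 and ZNF219 by 0.53 ± 0.10, and ZNF219 shares 22% of its exon length with other genes. Control replicate 3 was far below control replicates 1 and 2 in both. It had 47.7 CPM against 69.2 and 68.6 CPM for ZNF646, and 103 CPM against 138 and 135 CPM for ZNF219.

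The members with the highest level per exon length were also without a KRAB domain. ZNF768 stood first, with a mean of 65.4 CPM per kb of exon over the 6 libraries, followed by ZNF512B (42.1), ZNF330 (31.5), ZNF358 (28.6), ZNF598 (27.1) and ZNF580 (26.2). ZNF512B had 282, 268 and 293 CPM with GABA, against 233, 244 and 174 CPM in control cells (log2 fold change 0.37 ± 0.11). ZNF598, the ribosome-associated ubiquitin ligase, had 140, 136 and 147 CPM with GABA, against 121, 123 and 96.5 CPM in control cells (0.32 ± 0.09). In both genes control replicate 3 was far below the other control libraries, and without it the log2 fold changes were 0.24 for ZNF512B and 0.21 for ZNF598. ZNF580 rose by 0.42 ± 0.09 and ZNF358 by 0.51 ± 0.13, although 34.4% of the exon length of ZNF358 overlaps other genes. Control replicate 3 was also low for ZNF358, at 38.8 CPM against 54.1 and 53.1 CPM in control replicates 1 and 2. ZNF768 rose by 0.24 ± 0.10, a call lost without GABA replicate 2 or 3, and by 0.13 without control replicate 3. ZNF330, whose protein holds no match to the C2H2 pattern, had -0.24 ± 0.09 with overlapping groups.

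Falling members without the domain were led by ZNF280D and ZNF827. ZNF280D had -0.60 ± 0.18 at 20.5 ± 2.85 CPM with GABA and 31.0 ± 7.85 CPM in control cells (SD, n = 3 each), and 27.3% of its exon length overlaps another gene. Without control replicate 3 its log2 fold change was -0.39. ZNF827, which can bring the NuRD complex to telomeres, had 30.6, 30.4 and 32.7 CPM with GABA, against 40.8, 40.0 and 50.7 CPM in control cells (-0.49 ± 0.12, adjusted p = 0.0033). Control replicate 3 was the highest of the 6 libraries for this gene. ZNF618 had -0.43 ± 0.12, ZNF275 -0.36 ± 0.09, ZNF260 -0.32 ± 0.09 and ZNF395 -0.31 ± 0.08. ZNF395 shares 34.9% of its exon length with FBXO16. ZNF148, a GC-box binding factor also known as ZBP-89, had 151, 147 and 129 CPM with GABA, against 156, 155 and 180 CPM in control cells. Its log2 fold change of -0.20 ± 0.09 passed here (adjusted p = 0.035) and did not pass with DESeq2 size factors or DESeq2, or without control replicate 3 (where it was -0.13), GABA replicate 2 or GABA replicate 3.

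**Figure D3:**
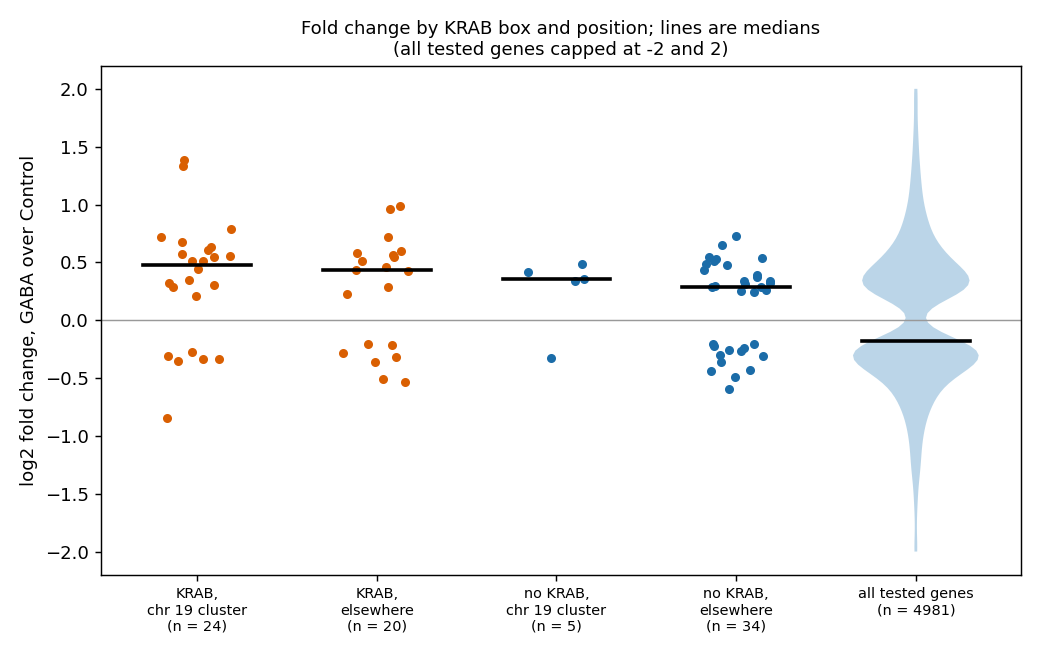
Points are members in 4 classes by KRAB domain and chromosome 19 cluster, and the shape at the right is the distribution of all 4981 tested genes, with extreme values drawn at the ends of its range; lines are medians of the log2 fold change of GABA over control. Medians are 0.48, 0.43, 0.36 and 0.29 from left to right, against -0.18 for all tested genes, and the gap around 0 is the near absence of unchanged genes from the files. The classes hold 24, 20, 5 and 34 members. They also differ in level, with medians of 3.54, 5.62, 17.3 and 13.1 CPM per kb of exon, and a difference between them was not tested.

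Chromosome 19 held 33 of the 83 members. Clusters were defined from the annotation as runs of at least 5 protein-coding zinc finger genes with gaps of at most 500 kb, which gave 9 clusters with 251 genes, of which 30 (12%) were listed. The 29 members in these clusters counted 22 higher and 7 lower, with a median log2 fold change of 0.42, and the 54 members elsewhere 34 higher and 20 lower (34 and 12 with DESeq2 size factors), with a median of 0.29. Within the KRAB class the counts were 18 higher and 6 lower in clusters and 13 higher and 7 lower elsewhere. Whether these classes differ was not tested. The counts of cluster members that rose include ZNF540, which reached the minimum count only through its GABA libraries.

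Cluster 9, toward the end of the long arm (chromosome 19, 55476332 to 58481230, hg38), held 12 members, of which 10 rose (83.3%, against 47.6% of all tested genes). ZNF524, ZNF865, ZNF580 and ZNF444, which have no KRAB domain and lie at its left side, rose by 0.34 to 0.49. Of the 8 KRAB members to their right, ZNF550, ZNF530, ZNF586, ZNF417, ZNF274 and ZNF446 rose, and ZNF264 and ZNF8 fell. ZNF264 had 73.7, 77.3 and 72.6 CPM with GABA, against 88.9, 90.1 and 92.2 CPM in control cells (-0.28 ± 0.08, adjusted p = 0.0073). ZNF417 shares 37.6% of its 50-base windows with other transcripts, most with its copy ZNF587, and ZNF8 22.2%, so their reads are uncertain. The call of ZNF8 was also lost without control replicate 2 or GABA replicate 1. ZNF274, which binds the 3' ends of other zinc finger genes and brings SETDB1 there, had 139, 132 and 139 CPM with GABA, against 113, 123 and 119 CPM in control cells (0.21 ± 0.07, adjusted p = 0.017).

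Cluster 7 (43525497 to 44500524) held 5 KRAB members that lie close together and did not move as a block. ZNF404 fell, as above, while ZNF221, ZNF155, ZNF235 and ZNF233 to its right rose by 1.39, 0.67, 0.79 and 0.57. ZNF155 had 8.61, 10.6 and 8.97 CPM with GABA, against 6.31, 5.31 and 5.98 CPM in control cells, and 41.4% of its exon length overlaps ZNF230-DT. ZNF235 had 12.5, 11.5 and 10.0 CPM with GABA, against 6.92, 6.86 and 5.85 CPM in control cells. ZNF235 and ZNF233 lie on opposite strands and share exon sequence (23.3% and 4.20% of their exon length overlaps other genes), and the strand setting of the counting is not given in the sources used here. In cluster 6 the KRAB gene ZNF571 rose and ZNF260, which lacks the domain, fell. Neighbours moved apart in cluster 2 as well, where ZNF317 rose by 0.29 and ZNF266 had -0.31, a call lost without GABA replicate 2. ZNF561, the KRAB member with the highest level (23.6 CPM per kb), had 181, 168 and 163 CPM with GABA, against 128, 129 and 147 CPM in control cells (0.35 ± 0.08, adjusted p = 0.0024).

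**Figure D4:**
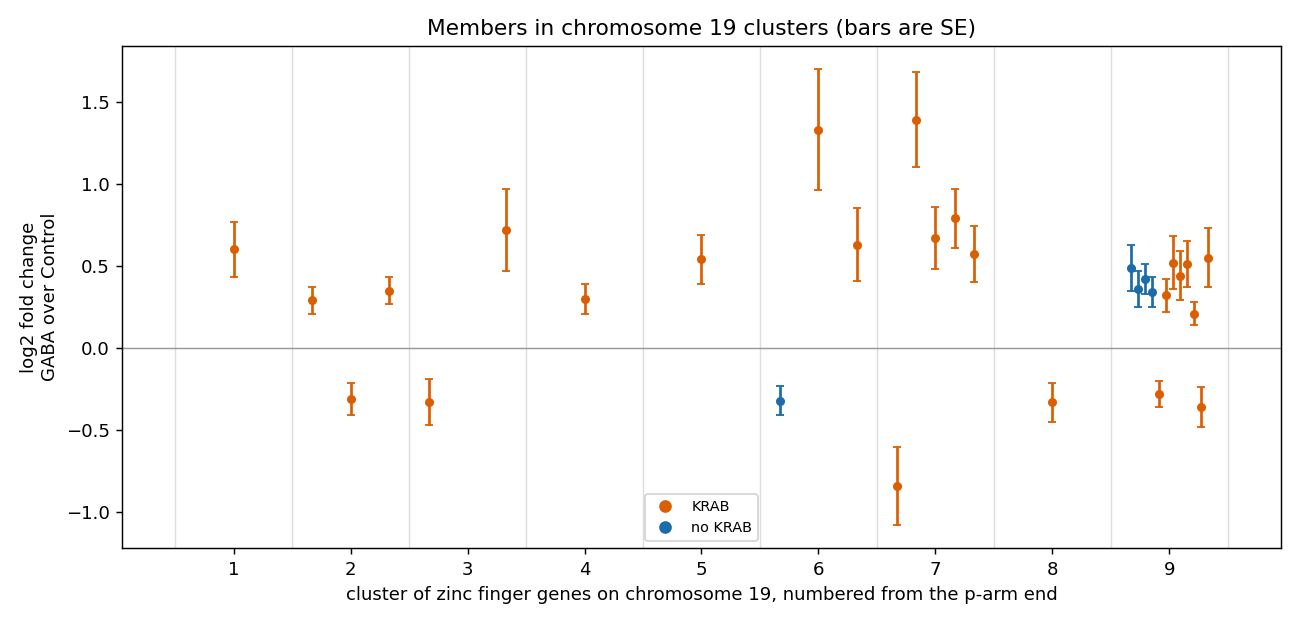
Log2 fold change of GABA over control with its SE for the 29 members in the 9 chromosome 19 clusters, in genomic order within each cluster. Cluster 9 has 10 of 12 members above 0, where 47.6% of all tested genes were called higher. Cluster 7 holds both the highest value, 1.39, and the lowest, -0.84. ZNF540, at 1.33 in cluster 6, reached the minimum count only through its GABA libraries.

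Promoter sequence was available from RefSeq (GRCh38.p14, 250 bases before to 50 after the gene start) for 66 members. Short motifs were searched on both strands. The ETS-family core CCGGAAG was present in 24 of 66 member promoters (36.4%), against 16.7% of the promoters of listed protein-coding genes and 10.7% of all promoters in the table. It occurred in 12 of 35 KRAB promoters (34.3%) and 12 of 31 others (38.7%), and in 19 of 44 promoters of members that rose (43.2%) and 5 of 22 of those that fell (22.7%). The split by direction was not computed over all listed genes. TGACGTC, the core of the cAMP response element, was in 8 of 66 (12.1%), against 5.12% of listed protein-coding genes and 3.63% of all promoters. By direction it was in 5 of 44 promoters of members that rose (11.4%) and 3 of 22 of those that fell (13.6%). ACTACAA, part of the site bound by ZNF143, was in 7 of 66 (10.6%), against 4.03% and 2.95%. By direction it was in 4 of 44 promoters of members that rose (9.09%) and 3 of 22 of those that fell (13.6%). The other motifs, GCATGCG (NRF1), AAGATGG (YY1), TTCGCGC (E2F) and TATAAA (the TATA box), were in 6.06%, 3.03%, 4.55% and 3.03% of member promoters, against 5.68%, 6.65%, 3.59% and 5.95% of listed protein-coding genes and 4.13%, 6.06%, 2.30% and 12% of all promoters. Promoters of members had a median of 21.5 CG dinucleotides, against 27 in listed protein-coding genes and 14 in all promoters. A letter match does not show binding, and no test was made of these shares.

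Promoters of 4 of the 8 members with a cAMP element core are shown, and capitals mark the motif matches. The 4 include 3 of the rising genes described above and 1 that fell, a choice that does not reflect the shares by direction. The core was in 11.4% of promoters of members that rose and 13.6% of those that fell. ZNF335 and ZNF561, which rose, and ZNF266 and ZNF330, which fell, also hold the full element TGACGTCA and are not shown. ZNF10 (chr12:133130377-133130676, plus strand) holds the full element and an E2F core, ZNF143 (chr11:9460762-9461061, plus strand) the full element and an ETS core, ZNF274 (chr19:58182811-58183110, plus strand) the core on the other strand and a pair of ETS cores, and ZNF138 (chr7:64794178-64794477, plus strand) a core that runs into an ETS core on the other strand.
ZNF10: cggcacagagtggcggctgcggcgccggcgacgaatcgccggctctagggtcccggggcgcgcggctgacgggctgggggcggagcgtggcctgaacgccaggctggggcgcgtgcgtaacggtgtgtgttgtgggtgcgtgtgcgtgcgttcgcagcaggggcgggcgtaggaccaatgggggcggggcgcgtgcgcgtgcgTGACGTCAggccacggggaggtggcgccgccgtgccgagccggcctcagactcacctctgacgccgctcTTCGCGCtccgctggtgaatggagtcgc
ZNF143: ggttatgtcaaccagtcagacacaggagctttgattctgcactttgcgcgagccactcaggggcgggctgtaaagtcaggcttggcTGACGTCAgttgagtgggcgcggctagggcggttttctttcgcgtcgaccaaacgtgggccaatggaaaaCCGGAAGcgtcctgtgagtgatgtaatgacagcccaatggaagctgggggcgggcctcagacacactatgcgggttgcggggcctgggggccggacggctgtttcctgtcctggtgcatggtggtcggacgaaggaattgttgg
ZNF274: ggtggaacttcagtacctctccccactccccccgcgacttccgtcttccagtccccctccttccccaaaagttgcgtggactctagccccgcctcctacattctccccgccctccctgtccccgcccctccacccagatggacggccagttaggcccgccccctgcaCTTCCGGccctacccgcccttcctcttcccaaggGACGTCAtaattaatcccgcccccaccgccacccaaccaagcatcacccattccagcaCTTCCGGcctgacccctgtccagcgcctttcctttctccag
ZNF138: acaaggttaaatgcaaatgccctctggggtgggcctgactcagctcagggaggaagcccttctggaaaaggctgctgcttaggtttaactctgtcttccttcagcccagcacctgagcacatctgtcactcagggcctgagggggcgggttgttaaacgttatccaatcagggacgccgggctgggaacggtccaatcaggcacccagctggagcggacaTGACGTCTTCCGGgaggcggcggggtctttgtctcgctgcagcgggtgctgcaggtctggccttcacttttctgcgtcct

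KRAB members had a lower median level than the others, with wide overlap. The median level of the KRAB members was 4.88 CPM per kb of exon, against 14.1 for the members without the domain (ranges 0.362 to 23.6 and 1.76 to 65.4) and 15.4 for all tested genes. The members were split into 3 bins of nearly equal size by this level, at 5.21 and 12.4 CPM per kb. In the lowest bin 20 of 28 rose and the median log2 fold change was 0.52, in the middle bin 14 of 27 rose (0.29), and in the highest 22 of 28 rose (0.30). Over all tested genes in the same ranges the shares that rose were 48.0%, 43.3% and 48.9%, with medians of -0.31, -0.25 and -0.15. KRAB members made up 24 of the 28 in the lowest bin, and 20 of these 24 rose, against 6 of 13 in the middle bin and 5 of 7 in the highest. The rises in the lowest bin include ZNF540, which reached the minimum count only through its GABA libraries. The 4 members without the domain in the lowest bin, ZNF117, ZNF280D, ZNF618 and ZNF827, all fell, although the call of ZNF117 was lost without control replicate 1 or GABA replicate 3. Absolute changes were larger where levels were low, with medians of 0.56, 0.32 and 0.32 in members and 0.78, 0.43 and 0.32 in all tested genes. The files list genes that differ in this comparison, and a gene with few counts needs a larger change to pass. This relation was therefore largely fixed by the selection and is no trait of the members.

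**Figure D5:**
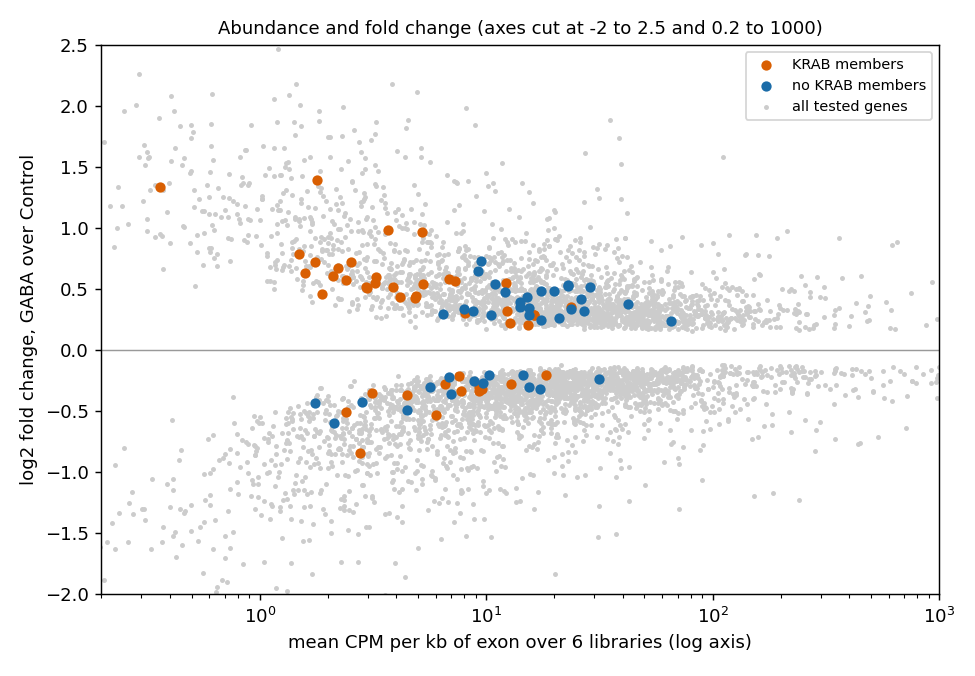
Mean CPM per kb of exon over the 6 libraries (log axis) against the log2 fold change of GABA over control, for 44 KRAB and 39 other members over all tested genes in grey; values outside the axes are not drawn. KRAB members lie mostly at the lower levels (median 4.88 against 14.1), and their fold changes spread more widely there. The files list genes that differ in this comparison, and few counts need a larger change to pass. The wider spread was therefore largely fixed by the selection.

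Sequence features and 1 library moved with the direction of change. Members that rose had a median GC content of 47.9% in their longest transcript and a median exon length of 5080 bases, and members that fell 41.0% and 7970 bases. The same held over all tested genes, with 52.4% and 4670 bases for those that rose and 45.2% and 5260 bases for those that fell. The number of finger matches did not separate them (median 9 in members that rose and 10 in members that fell). Control replicate 3 was the lowest control library in 21 of the 25 rising members without a KRAB domain (84.0%), in 13 of the 31 rising KRAB members (41.9%) and in 55.5% of all genes called higher. It was the highest control library in 18 of the 27 members that fell (66.7%), against 52.4% of all genes called lower. Without this library 55 members rose and 22 fell, 25 and 12 of them among members without the domain and 30 and 10 among KRAB members. The members' median was then 0.28, against 0.34 with all libraries. The median over all tested genes also moved toward 0, from -0.18 to -0.12. The part of GC content and length in these results was not tested.

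The corepressor machinery that KRAB proteins use was partly listed. Of 47 genes fixed as a list, 16 were in the files, and 11 rose and 5 fell, with a median log2 fold change of 0.29; over all tested genes 47.6% rose and 51.2% fell. With DESeq2 size factors or DESeq2, or without GABA replicate 1 or 3, 3 of the list fell. The GABA and control libraries overlapped for H3-3B and SMARCAD1, which are among the 5 that fell. TRIM28, the direct partner of the KRAB domain, had 642 ± 14.2 CPM with GABA and 508 ± 25.6 CPM in control cells (SD, n = 3 each; 0.34 ± 0.06, adjusted p = 7.1e-04). DNMT1, the maintenance DNA methyltransferase, and UHRF1, which guides it to hemimethylated DNA, each rose by 0.63, with SE of 0.06 and 0.10. SUV39H1 and EHMT2, histone H3 lysine 9 methyltransferases, rose by 0.49 and 0.37, and 20.3% of the exon length of SUV39H1 overlaps another gene. CBX1, which encodes heterochromatin protein 1 beta, rose by 0.29, whereas CBX3, the gamma form, had -0.32. UBA2, a subunit of the SUMO activating enzyme, had -0.32, and the replacement histone gene H3-3A -0.25. Control replicate 3 was the lowest control library for UHRF1, SUV39H1, EHMT2 and CBX1, and the highest for CBX3 and UBA2. It had 113 CPM for EHMT2, against 140 and 145 CPM in control replicates 1 and 2. For CBX3 it had 407 CPM, against 326 and 324 CPM. For TRIM28 it did not stand apart, with 492 CPM against 538 and 495 CPM. SETDB1 was not in the files used here.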

How the data were processed

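RNA was sequenced from 3 GABA-treated and 3 control Huh7 cultures. The deposited values are whole-number read counts per Ensembl gene, as the authors' column names say. Per the submitters' processing notes, CASAVA 1.8, Bowtie 0.12.2 and the hg38 build were used; the counting program, its annotation and strand setting, and how the listed genes were chosen are not given in the sources used here. Identifiers were matched to GENCODE release 29 (GRCh38, all 5187 found), with current symbols for 5173.

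Counts were fitted with edgeR 4.0.16 in R 4.3.3 over the whole table: filterByExpr (minimum count 10, minimum total 15; 4981 genes kept, 206 removed), TMM, robust quasi-likelihood fit and F test of GABA over control, Benjamini-Hochberg adjustment, threshold 0.05. SE is the log2 fold change divided by the root of F. The fit was tested on simulated data in which most genes were unchanged. Nearly all listed genes differ, so that test does not show how the fit performs on such a selection. CPM per kb uses the union of GENCODE exons. No protein table was at hand, so proteins were translated from GENCODE transcripts; local alignment used BLOSUM62 with gap costs 11 and 1 (Biopython 1.88). A finger is Cys, 2 to 4 residues, Cys, 12 residues, His, 3 to 5 residues, His. Motifs and copy windows of 50 bases were letter matches.

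The members and lists were chosen with earlier results of these data known. Genes were named by a rule: members past the threshold with the smallest p (10 in each direction), the 4 largest rises and falls without overlap, the 6 most and 4 least abundant, a fixed set of known members, and TRIM28, SETDB1 and 4 corepressor genes by p; other genes were named after their values were seen. Alternatives were other scalings, no filter, DESeq2 1.42.0, limma-voom (limma 3.58.1), a block for the replicate number, omission of each library in turn, a minimum mean count of 50, under 20% exon overlap, a KRAB score of 100 and cluster gaps of 250 kb. Replicates differed by more than sampling noise, so none was counted as a duplicate. The variance ratio was 2.75 to 4.51 between GABA libraries and 5.57 between control replicates 1 and 2. It was 18.6 and 26.8 for control replicate 3 against control replicates 1 and 2. Tables were joined in Python 3.11.15 with pandas 2.3.3, and plots drawn with matplotlib 3.10.9.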

Additional observations from a re-analysis of the deposited data

How the results depend on the processing

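No member changed sign in any other fit, and 55 of the 83 kept their call in every one; since the files list genes that differ in this comparison, that outcome was largely fixed beforehand. The number of members that rose ran from 50 to 56. The number that fell was more open: 27 here, 18 with DESeq2 size factors in edgeR or with DESeq2, and 14 to 23 with a library left out, the lowest without GABA replicate 3 (16 without GABA replicate 1). With DESeq2 size factors and with DESeq2, 8 members without the KRAB domain, 12 members outside the clusters and 3 corepressor genes fell, against 14, 20 and 5 here; those scalings put the median over all genes at -0.13, against -0.18. With a library left out, 7 to 11 KRAB members, 6 to 12 others, 4 to 7 cluster members, 8 to 17 members elsewhere and 3 to 4 corepressor genes fell, and the members' median log2 fold change ran from 0.28 (without control replicate 3) to 0.35. Without control replicate 3 the median over all genes was -0.12. Fits with fewer libraries have less power by construction. Otherwise the cause was not tested. The replicate block gave 56 members higher and 25 lower. Same-numbered libraries did not deviate together (correlations 0.000333, -0.0890 and -0.0363), 0 of 6 libraries correlated best with their own number, and the labels do not say that numbers mark a pairing. The members named by the rule and the 6 corepressor genes with the smallest p, TRIM28 among them, made 41 genes. These gave 533 other values, of which 513 kept their call and 20 lost it. Low counts limit ZNF540, ZNF221 and ZNF69.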

Other observations

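Other zinc finger genes were also listed. The 13 tested genes named ZFP, ZKSCAN, ZSCAN or ZBTB counted 6 higher and 7 lower, with a median log2 fold change of -0.19, close to all tested genes (47.6% higher, 51.2% lower, median -0.18). The 6 include ZBTB8B, with 13, 16 and 20 counts with GABA and 5, 2 and 1 in control cells. ZBTB8B passed the filter on low counts only through its GABA libraries, so its direction is no support for a rise. ZBTB17 (MIZ1), a partner of MYC, rose by 0.39 ± 0.10 (SE), and ZFP36 (tristetraprolin), which speeds the decay of AU-rich messenger RNAs, had -0.30 ± 0.12 with overlapping groups. All 9 tested KLF and SP genes, whose triple-finger proteins bind GC-rich boxes, were lower, with a median of -0.39, against 51.2% lower and a median of -0.18 over all tested genes. KLF11 had 26.5 ± 3.53 CPM with GABA and 51.7 ± 5.51 CPM in control cells (SD, n = 3 each; -0.96 ± 0.12, edgeR adjusted p = 8.2e-05). KLF3 had 71.6 ± 1.76 CPM with GABA and 124 ± 11.7 CPM in control cells (-0.79 ± 0.09), and SP1, the founding member of the SP group, 226 ± 10.7 CPM with GABA and 285 ± 5.91 CPM in control cells (-0.33 ± 0.06). No test set these families against the ZNF members.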
